A study of Mus musculus with 20 samples.

Results

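Binding of natural antibodies (NAbs) of BALB/c mice was described here for glycans that carry an α-linked N-acetylglucosamine (GlcNAc) on another sugar. All glycans with this element were kept whose structure held neither sulfate, sialic acid nor fucose, whether GlcNAc was the terminal sugar or was capped by galactose. This rule, which used no measured value, selected 9 of the 419 printed compounds, of which 406 are glycans.

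Serum of 10-week-old BALB/c mice, 1 inbred strain kept free of specific pathogens and given no treatment, was applied at a dilution of 1:15 to printed glycan arrays (PGA). These are glass slides on which synthetic glycans are fixed through short amine spacers. The arrays were labelled as 13 females and 7 males, and bound IgM and IgG were detected together. The groups differed only in sex by their labels. The arrays of mouse BALB/c-44 and mouse BALB/c-45 held the same value in 2664 of 2664 spots and were counted once, which left 19 mice, 12 females and 7 males.

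NAbs are immunoglobulins that circulate without known immunization, many of them IgM made by B-1 cells, and a large part of them binds sugars. In mammalian glycoproteins GlcNAc is mostly joined through a β linkage, as in the lactosamine chains that carry blood group antigens. α-linked GlcNAc is known from the mucin of the gastric glands, from heparan sulfate and from polysaccharides of bacteria. An antibody that binds a sugar in one linkage need not bind the same sugar in the other.

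The structures are shown because most comparisons turn on the anomer of 1 GlcNAc, on its position on the next sugar, or on its cap, and the others on the terminal sugar, the sugars beneath it or the spacer. The outermost sugar is written first, and sp2 and sp3 stand for the spacer to the glass.
142: GlcNAcα1-3GalNAcβ-sp3
242: GlcNAcα1-3Galβ1-4GlcNAcβ-sp2
243: GlcNAcα1-3Galβ1-4GlcNAcβ-sp3
245: GlcNAcα1-6Galβ1-4GlcNAcβ-sp2
378: Galβ1-3GlcNAcα1-3Galβ1-4GlcNAcβ-sp3
380: Galβ1-3GlcNAcα1-6Galβ1-4GlcNAcβ-sp2
386: Galβ1-4GlcNAcα1-6Galβ1-4GlcNAcβ-sp2
399: Galβ1-3GlcNAcα1-3Galβ1-3GlcNAcβ-sp2
800: GlcNAcα1-4GlcNAcβ-sp3
The α-linked GlcNAc was bound to position 3 of the next sugar in 5 of the 9 glycans, to position 6 in 3 and to position 4 in 1. It was terminal in 5 glycans and capped by β-galactose in 4. No member holds the α1-4 link to galactose that is found in gastric gland mucin. Glycans 242 and 243 are the same trisaccharide on a different spacer. Glycans 378 and 399 differ in the inner disaccharide, which is Galβ1-4GlcNAc (type 2 chain) in 378 and Galβ1-3GlcNAc (type 1 chain) in 399, and also in the spacer.

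Binding is given in relative fluorescence units (RFU), the median over the 6 spots of a glycan on the array of a mouse, with the local background left in. Values at or above 4000 RFU, the threshold of the study, were taken as bound. The buffer spots, printed without glycan, had medians from 93.5 to 2044.5 RFU on the 19 arrays (median 577.5), and the negative control trehalose-ethanolamine ran from 55 to 914 RFU. Signals below those of buffer therefore carry no order. The arrays also fell into 2 sets, told apart by the ratio of 2 printed peptide compounds. Set 1 had array medians of 126.5 to 411.5 RFU (9 arrays, 7 females and 2 males) and set 2 of 603 to 1504.5 RFU (10 arrays, 5 females and 5 males). No label names this split, and all 20 arrays share the scanner settings, so values are also given by set where a result rests on it.

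Of the 9 glycans, 7 were bound in at least 1 mouse, as were 54.9% of all 419 compounds. Binding in at least 5 mice was seen for 142, 378 and 399, which makes 3 of 9 members against 17.9% of all compounds. Only 399 had a median at or above 4000 RFU, as did 8.11% of all compounds, and 9 mice or more bound 378 and 399, against 9.79%. The members' medians over mice had a median of 476.5 RFU, against 635.5 RFU over all compounds. Their highest values had a median of 32345.5 RFU, against 4796 RFU. The members were unlike each other in this, since 378 and 399 were bound in 9 and 10 mice, 242 and 243 in none and the other 5 in 1 to 5. At least 1 of them was bound in 13 of 19 mice, 7 of 12 females and 6 of 7 males, and no mouse bound more than 4.

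**Figure D1:**
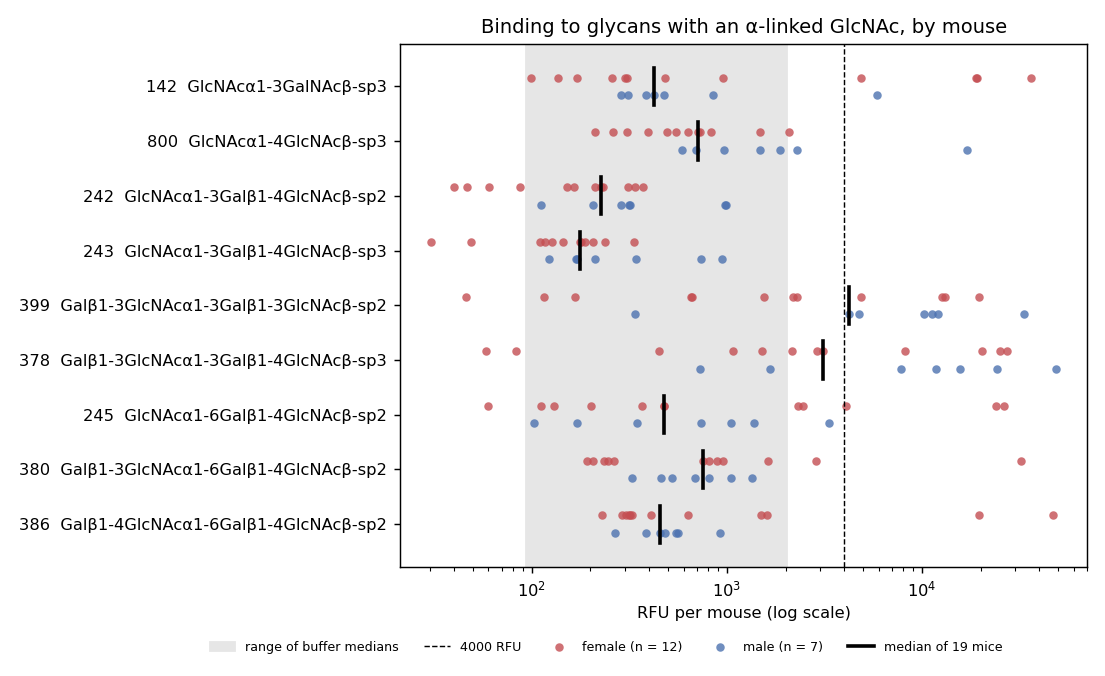
RFU of the 9 glycans (vertical axis) in each of 19 mice on a logarithmic axis, with 12 females in red, 7 males in blue, the median as a black bar, the range of the buffer medians in grey and 4000 RFU as a dashed line. Glycans 378 and 399 spread from below buffer to 48806 and 33386.5 RFU, 242 and 243 stay below 1000 RFU in every mouse, and the others are high in 1 to 5 mice.

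By the median over mice and by the number of mice, binding was highest for the capped α1-3 tetrasaccharides, and both were recognized by the same animals. Signals of 378 ran from 58.0 RFU in the lowest mouse to 48806 RFU in the highest, around a median of 3126.5 RFU ± 3068.5 (MAD, n = 19). Those of 399 ran from 46.0 to 33386.5 RFU, around a median of 4225.5 RFU ± 4059. Mouse BALB/c-107, a male, gave the highest value for both and mouse BALB/c-38, a female, the lowest for both.

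Glycan 378 was bound in 9 of 19 mice (47.4%, exact binomial 95% interval 24.4 to 71.1%) and 399 in 10 of 19 (52.6%, 28.9 to 75.6%). The 9 mice that bound 378 (BALB/c-53, BALB/c-56, BALB/c-65, BALB/c-70, BALB/c-82, BALB/c-87, BALB/c-88, BALB/c-104 and BALB/c-107) all bound 399 as well. The tenth for 399 was mouse BALB/c-48, at 4225.5 RFU and so close to the threshold, where 378 gave 1667 RFU. In the order of medians over the 419 compounds, 399 stood at place 31 and 378 at place 44. For 378, 3 spots held saturated pixels, and for 399 none did. The spots of 378 were uneven on some arrays of set 1. They ran from 14 to 2471 RFU in mouse BALB/c-17, 4 to 4457 RFU in BALB/c-42 and 17 to 23059 RFU in BALB/c-56. Those of 399 ran from 285 to 1276, 752 to 4171 and 5026 to 21219 RFU in these mice. The MAD among the 6 spots had a median over mice of 1444 RFU for 378 and 298.5 RFU for 399. Its part in the values of 378 was not tested.

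Within the mice that bound it, 378 was 1.14 to 2.07 times as bright as 399 (median 1.59). These mice were chosen by their signal of 378, which favours high ratios, and mouse BALB/c-48, which bound 399 but not 378, is not among them. Over all 19 mice, after every signal under the array's buffer median had been set to that median, 378 exceeded 399 by 0.40 on the log2 scale (95% interval 0.12 to 0.67, adjusted p = 0.0285, exact sign-flip permutation test with Benjamini-Hochberg adjustment over 24 pairs). It was higher in 13 mice and lower in 2. This small difference was no longer past 0.05 when mouse BALB/c-88 was left out (0.37, adjusted p = 0.0552) or when spots were averaged (0.35, adjusted p = 0.0604), and the inner chain and the spacer change together in this pair. Every difference between glycans given hereafter comes from the same test, over the same 24 pairs and on the same log2 scale. Raising signals to buffer made some of these differences smaller and others larger than as measured.

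Both glycans rose and fell together over mice. Within set 1, log2 RFU of 378 and 399 correlated with Pearson r = 0.98 and Spearman rho = 0.98 (9 mice, exact permutation test, adjusted p = 0.000794 and 0.00278). Within set 2, r was 0.93 and rho 0.98 (10 mice, permutation test, adjusted p = 0.00288 and 0.00278). Without the pair of mice farthest from the median of 378, r was 0.97 and 0.98. Of 72 such correlations among the 9 glycans in both sets, the only other past 0.05 was that of 380 with 800 in set 2 (rho = -0.88, permutation adjusted p = 0.0386, r = -0.67). After the median of each array was subtracted it was -0.26, and r without the pair of mice farthest from the median was -0.58.

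Another compound followed them. By the likeness of log2 RFU minus the array median over the 19 mice, the compound closest to 378 among all others was 397, and 397 and 378 were the closest to 399. The rho of 397 with 378 was 0.97 in set 1 and 0.96 in set 2, and with 399 it was 0.93 and 0.96. The next closest compound to both, the blood group B (type 3) glycan 362, had rho of 0.57 to 0.76. These values describe the arrays and were not tested.

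In the compound table the structure of 397 holds no α-linked GlcNAc:
397: (GlcNAcβ1)3-3,4,6-GalNAcα-sp3
The table gives the same structure for compound 396. Compound 397 ran from 320.5 to 41901.5 RFU (median 2727 ± 2406.5) and was bound in 9 mice, the same 9 that bound 378. Compound 396 ran from 53.5 to 55565.5 RFU (median 1783.5 ± 1225) and was bound in 4 mice, 2 of them among those 9. Unadjusted for the array level, 378 and 397 had rho of 0.95 in set 1 and 0.96 in set 2, whereas 378 and 396 had 0.39 and -0.28. Compounds 396 and 397 thus bear 1 listed structure and gave unlike signals over the same mice, and which of the printed materials the listed structure describes was not tested.

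**Figure D2:**
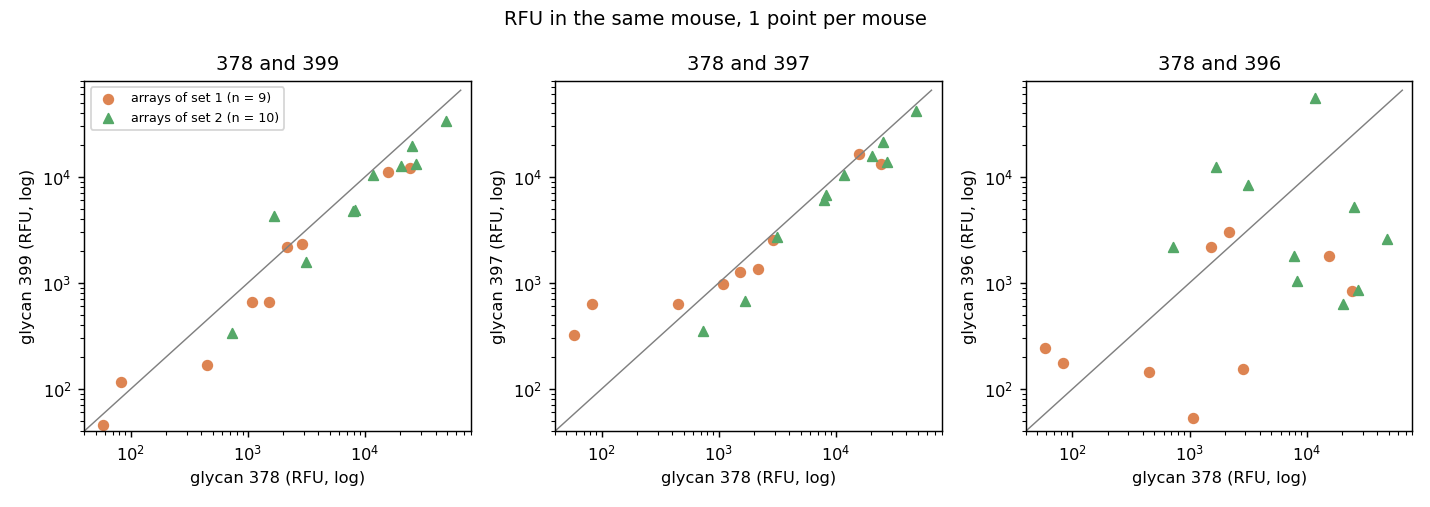
RFU of 399, 397 and 396 (vertical axes) against 378 (horizontal axis) in the same mouse, both axes logarithmic, with 9 arrays of set 1 as circles, 10 of set 2 as triangles and the line of equal signal in grey. Points of 399 and 397 lie along the line in both sets and those of 396 do not.

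The β counterparts of these tetrasaccharides differ from them in the anomer of 1 GlcNAc alone.
379: Galβ1-3GlcNAcβ1-3Galβ1-4GlcNAcβ-sp3
377: Galβ1-3GlcNAcβ1-3Galβ1-3GlcNAcβ-sp2
Glycan 379 ran from 115 to 4148.5 RFU (median 1080.5 ± 864) and was bound in 1 mouse, and 377 ran from 47.5 to 4305 RFU (median 380 ± 156.5) and was also bound in 1. The α form exceeded the β form by 2.05 for 378 over 379 (95% interval 0.99 to 3.08, exact permutation adjusted p = 0.00494), or 4.13 times, and was the higher in 14 mice and the lower in 3. For 399 over 377 the difference was 2.25 (1.26 to 3.24, exact permutation adjusted p = 0.000732), or 4.74 times, with 15 mice higher and 2 lower, and it was 1.57 with spots flagged as not found by the scanner software left out. The α form of both was thus brighter, and the ranges of α and β forms over mice still overlapped.

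The size of both differences varied between the sets of arrays. For 378 over 379 it was 1.23 in set 1 (exact permutation adjusted p = 0.281) and 2.78 in set 2, and for 399 over 377 it was 1.53 (exact permutation adjusted p = 0.150) and 2.89. In mouse BALB/c-106 neither α form was bound (378 at 728 RFU, 399 at 338.5 RFU), while 377 reached its highest value there. That value, 4305 RFU, was 2.11 times the buffer median of this array, which at 2044.5 RFU was the highest of all arrays. Mouse BALB/c-82 bound all of 378, 399 and 379, at 24393.5, 12068 and 4148.5 RFU.

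Without the galactose cap the α1-3 trisaccharide was not bound in any mouse. Glycan 242 ran from 40 to 995.5 RFU (median 227.5 ± 90) and 243 from 30.5 to 949 RFU (median 176.5 ± 53.5), and each exceeded the buffer median of its array in 1 mouse. Binding in 0 of 19 mice allows a share of up to 17.6% by the exact binomial interval. Their medians and that of the negative control, 238.5 RFU, all lay below the median buffer value of 577.5 RFU, where signals carry no order. With spots flagged as not found left out, 243 passed 4000 RFU in 1 mouse.

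The cap was therefore compared directly. Glycan 378 is 243 with Galβ1-3 added on the same spacer, and it exceeded 243 by 3.13 (95% interval 2.09 to 4.16, exact permutation adjusted p = 0.000488). As 243 was at or below buffer in 18 mice, this is a difference between 378 and buffer for the most part, and its size moved with the treatment of low signals, to 2.30 with spots flagged as not found left out (exact permutation adjusted p = 0.00293) and to 4.18 as measured (exact permutation adjusted p = 0.000183). It was higher in 15 mice and lower in none, and in the other 4 neither was above buffer. On the spacers, 242 and 243 differed by 0.02 with signals raised to buffer, since both were at or below it in 18 mice. As measured the difference was 0.21 (exact permutation adjusted p = 0.0899), so that these signals cannot show whether the spacer mattered.

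The order of anomers was the reverse for the uncapped trisaccharide, where the β form, a lactosamine extended by GlcNAc, was the brighter.
249: GlcNAcβ1-3Galβ1-4GlcNAcβ-sp2
250: GlcNAcβ1-3Galβ1-4GlcNAcβ-sp3
Glycan 249 ran from 62.5 to 7468 RFU (median 1004 ± 794) and 250 from 61.0 to 7226 RFU (median 1134 ± 842.5). Each was bound in 2 mice, BALB/c-65 and BALB/c-87, both females of set 2. The α form was lower on sp2 (242 minus 249 was -1.27, 95% interval -1.84 to -0.71, exact permutation adjusted p = 0.000732) and on sp3 (243 minus 250 was -1.50, -2.07 to -0.94, exact permutation adjusted p = 0.000183). The α form was the higher in no mouse, and the β form in 14 and 18 mice. Since the α forms were at buffer in 18 mice, these are differences between the β forms and buffer for the most part. With spots flagged as not found left out they were -0.75 on sp2 and -0.68 on sp3 (exact permutation adjusted p = 0.00586 and 0.0355), and as measured they were -2.22 and -2.71.

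Glycans with another sugar in the terminal α1-3 position of the same chain were not bound either. Galα1-3Galβ1-4GlcNAcβ (222), the α-galactosyl epitope that mice make themselves, ran from 108.5 to 1031 RFU, and GalNAcα1-3Galβ1-4GlcNAc (274), whose anomer next to the spacer is not listed, from 34.5 to 1795.5 RFU. The difference of 243 was -0.15 from 222 (95% interval -0.33 to 0.04, exact permutation adjusted p = 0.224) and -0.16 from 274 (-0.39 to 0.00, exact permutation adjusted p = 0.375). As measured, the difference from 274 was -0.56 (exact permutation adjusted p = 0.0445), and on the scale of log2(RFU + 500) it was -0.26 (exact permutation adjusted p = 0.0216), at signals where 243 was above buffer in 1 mouse.

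**Figure D3:**
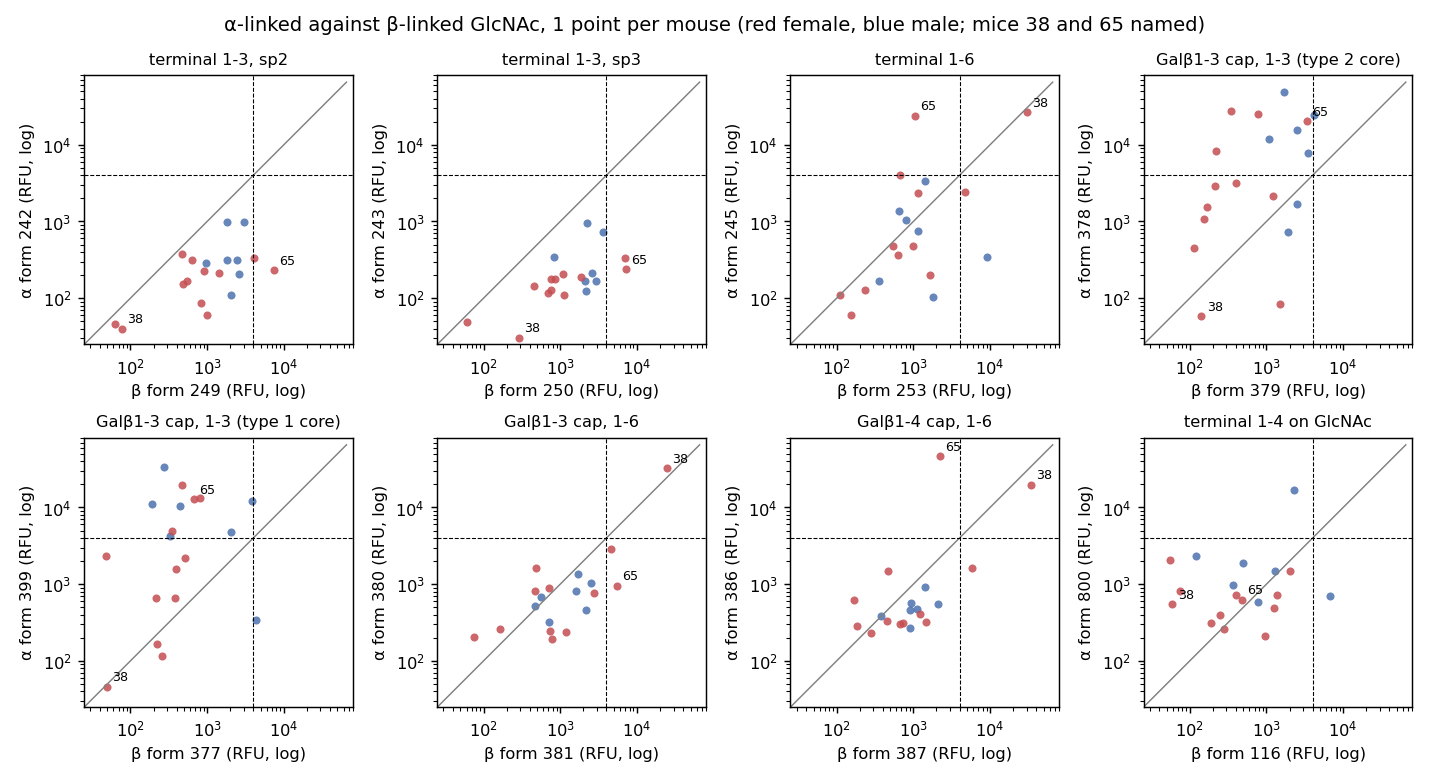
RFU of the α form (vertical axis) against the β form (horizontal axis) in the same mouse for 8 pairs that differ in the anomer of 1 GlcNAc, both axes logarithmic, with females in red, males in blue, 4000 RFU dashed and mice BALB/c-38 and BALB/c-65 named. Most points lie above the line of equal signal for 378 and 399, below it for 242 and 243, and on both sides for the pairs linked to position 6.

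The glycans with GlcNAc α1-6-linked to galactose were mostly at the level of buffer and very bright in a few mice. Glycan 245 ran from 59.5 to 26449 RFU (median 476.5 ± 373.5) and was bound in mice BALB/c-38, BALB/c-65 and BALB/c-88. Glycan 386, capped by Galβ1-4, ran from 229 to 46931.5 RFU (median 454.5 ± 151.5) and was bound in mice BALB/c-38 and BALB/c-65. Glycan 380, capped by Galβ1-3, ran from 191 to 32345.5 RFU (median 756.5 ± 431) and was bound in mouse BALB/c-38. These 3 mice are females, of which BALB/c-38 belongs to set 1 and BALB/c-65 and BALB/c-88 to set 2, and mouse BALB/c-88 passed the threshold for 245 narrowly, at 4073.5 RFU.

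Their β counterparts follow.
253: GlcNAcβ1-6Galβ1-4GlcNAcβ-sp2
381: Galβ1-3GlcNAcβ1-6Galβ1-4GlcNAcβ-sp2
387: Galβ1-4GlcNAcβ1-6Galβ1-4GlcNAcβ-sp2
Medians were 978.5 RFU ± 461 for 253, 772 RFU ± 607 for 381 and 898.5 RFU ± 501 for 387, and 3, 3 and 2 mice bound them. No anomer pair of this linkage passed 0.05. The difference, α minus β, was -0.26 for 245 and 253 (95% interval -1.15 to 0.66, exact permutation adjusted p = 0.684) and -0.14 for 386 and 387 (-0.77 to 0.55, exact permutation adjusted p = 0.803). For 380 and 381 it was -0.52 (-0.99 to -0.05, exact permutation adjusted p = 0.0778), with 381 the higher in 11 mice and 380 in 4, and it was past 0.05 without mouse BALB/c-17 (-0.65, adjusted p = 0.0134). These intervals leave room for differences of up to 1.15 on the log2 scale, and a p that misses the threshold does not show that the anomers act alike.

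The mean over mice hid opposite patterns in single animals. Mouse BALB/c-38 bound the whole 1-6-linked family whatever its anomer and cap: 245 gave 26449, 253 gave 30294, 380 gave 32345.5, 381 gave 24334, 386 gave 19716 and 387 gave 34333 RFU, on an array with a buffer median of 112.5 RFU. Mouse BALB/c-65 bound 245 at 24010.5 RFU and 386 at 46931.5 RFU, whereas 253 gave 1056.5, 380 gave 952 and 387 gave 2227.5 RFU, and 381 gave 5442 RFU. In mouse BALB/c-65 the α form thus exceeded the β form by 4.51 for the uncapped glycan and by 4.40 for the Galβ1-4-capped one, and the difference was -2.52 for the Galβ1-3-capped one. Mouse BALB/c-107 had the opposite order for the uncapped glycan, with 253 bound at 9027.5 RFU and 245 at 346.5 RFU.

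The spots behind these values were uneven in mouse BALB/c-38. The 6 spots of 245 ran from 10 to 52116 RFU and those of 380 from 11912 to 38162 RFU there, while the spots of 245 in mouse BALB/c-65 ran from 18455 to 41388 RFU and those of 386 from 34765 to 54475 RFU. On the array of mouse BALB/c-38, 43.4% of all spots had been flagged as not found by the scanner software. The part of this in the values of mouse BALB/c-38 was not tested. Other arrays of set 1 also held uneven spots. In mouse BALB/c-17 those of 245 ran from 39 to 38169 RFU and those of 380 from 24 to 6838 RFU.

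Neither cap changed the mean signal of the α1-6 trisaccharide past the threshold. Adding Galβ1-3 gave a difference of -0.35 (380 minus 245, 95% interval -0.93 to 0.17, exact permutation adjusted p = 0.381) and adding Galβ1-4 one of -0.07 (386 minus 245, -0.51 to 0.36, exact permutation adjusted p = 0.803). The 2 caps differed by -0.27 (380 minus 386, -0.93 to 0.26, exact permutation adjusted p = 0.684). The interval for the Galβ1-3 cap lies wholly below that of the same cap on the α1-3 trisaccharide, 2.09 to 4.16, although the difference between these pairs was not itself tested.

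The position of the α link was compared for glycans with and without the cap. Without it, 245 (position 6) exceeded 242 (position 3, same spacer) by 1.31 (95% interval 0.25 to 2.42, exact permutation adjusted p = 0.0293) and was higher in 9 mice and lower in 1. Leaving out mouse BALB/c-20, BALB/c-38, BALB/c-65, BALB/c-88 or BALB/c-90 moved the adjusted p to 0.0521 to 0.0586, with differences of 0.94 to 1.31. The call was also lost with the mean of the spots (1.40, adjusted p = 0.0527) and with spots flagged as not found left out (0.77, adjusted p = 0.0750). With the Galβ1-3 cap the order was the reverse, and 378 (position 3) exceeded 380 (position 6, on another spacer) by 2.15 (0.53 to 3.66, exact permutation adjusted p = 0.0355), in 14 mice against 3. This held in 7 of 19 analyses that left out 1 mouse. It was lost without any of mice BALB/c-19, BALB/c-42, BALB/c-44, BALB/c-53, BALB/c-56, BALB/c-65, BALB/c-70, BALB/c-82, BALB/c-87, BALB/c-88, BALB/c-104 and BALB/c-107, with adjusted p of 0.0549 to 0.0695 and differences of 1.91 to 2.11. It was also lost with the mean of the spots (1.87, adjusted p = 0.0543). By set of arrays it was 1.13 in set 1 (exact permutation adjusted p = 0.571) and 3.06 in set 2. The widest single difference ran against it, -8.17 in mouse BALB/c-38.

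**Figure D4:**
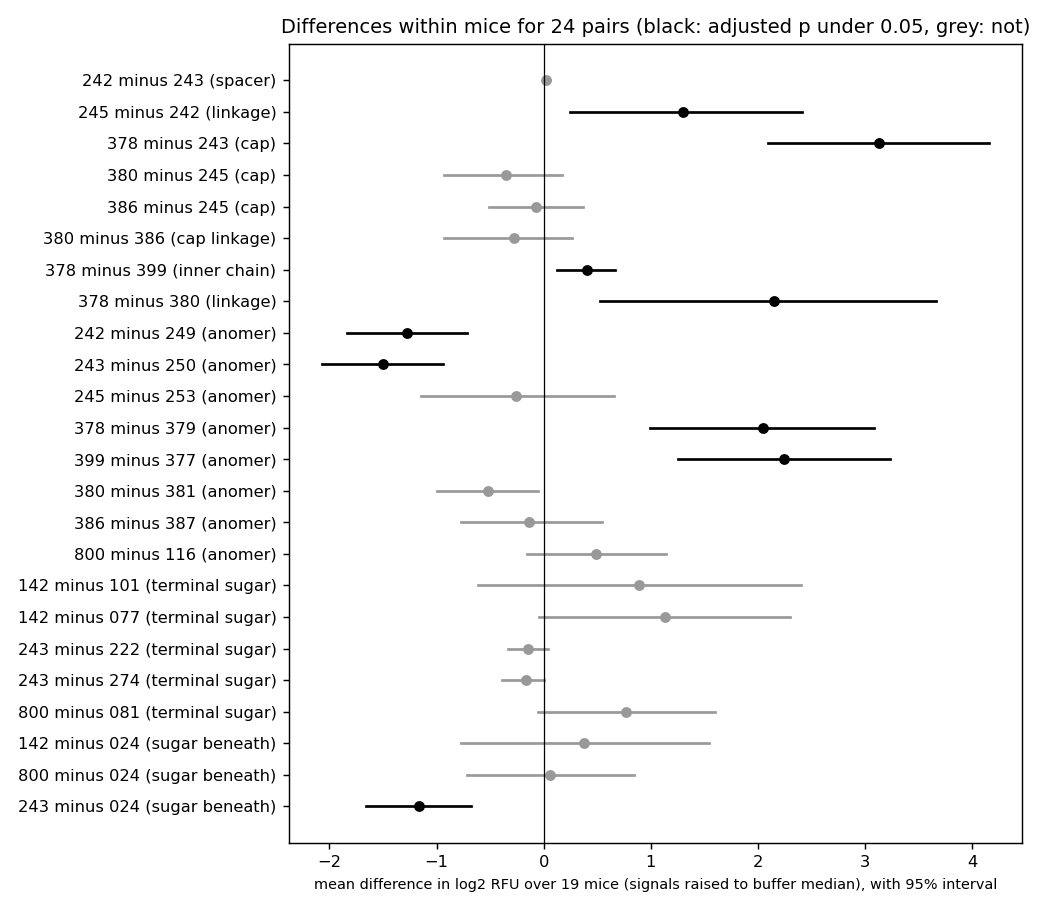
Mean difference in log2 RFU within mice (horizontal axis, points) with its 95% interval (lines) for the 24 pairs of glycans (vertical axis), over 19 mice with low signals set to the buffer median. The 9 pairs past an adjusted p of 0.05 are black, 6 of them with the first glycan higher and 3 with the second higher.

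Glycan 142, GlcNAcα1-3 on GalNAc, had a low median and 5 mice that bound it. It ran from 99.0 to 36425.5 RFU (median 425.5 ± 254.5, n = 19), with BALB/c-37 at 36425.5, BALB/c-20 at 19193, BALB/c-88 at 18999, BALB/c-56 at 5873.5 and BALB/c-38 at 4861 RFU. These were 4 of 12 females and 1 of 7 males, and 4 of the 5 belonged to set 1. The sixth mouse gave 961 RFU, so that the bound values stood apart from the rest. The spots of 142 were uneven in some of these mice, from 1306 to 27247 RFU in BALB/c-38 and from 16947 to 60096 RFU in BALB/c-37. For 142, 2 spots held saturated pixels. The binding share was 26.3% (exact binomial 95% interval 9.1 to 51.2%).

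Of these 5 mice, 2 (BALB/c-56 and BALB/c-88) also bound 378 and 399, beside 9 and 10 of all 19 mice. BALB/c-38 and BALB/c-88 bound 245, beside 3 of all 19. Mice BALB/c-20 and BALB/c-37 bound 142 and no other member. The related glycans that carry another α1-3-linked sugar on GalNAc were seldom bound: GalNAcα1-3GalNAcβ (101), the terminal disaccharide of the Forssman antigen, in 1 mouse (mouse BALB/c-44, 6774.5 RFU) and Galα1-3GalNAcβ (077) in none (121.5 to 1300.5 RFU). With 101 bound in 1 mouse and 077 in none, these counts cannot show whether either is bound together with 142.

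Even so, no mean difference of 142 passed 0.05. It was 0.89 against 101 (95% interval -0.61 to 2.40, exact permutation adjusted p = 0.365) and 1.13 against 077 (-0.04 to 2.30, exact permutation adjusted p = 0.122), with 142 the higher in 8 mice and the lower in 7 for 101, and the higher in 7 and the lower in 8 for 077. In set 1 these differences were 1.99 and 2.38, and in set 2 -0.10 and 0.003. The compounds most like 142 over mice were 188, a disialic acid, and then 406, 134, 139 and 535, with rho of 0.20 to 0.62 in set 1 and of 0.37 to 0.65 in set 2. Of these, 188 was bound in 2 mice and the others in none.

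Glycan 800, chitobiose with an α in place of a β link between its GlcNAc residues, was bound in 1 mouse, the male BALB/c-107, at 17120 RFU. Over the other mice it did not pass 2295.5 RFU, and its range began at 211 RFU (median 715 ± 320.5, n = 19). Mouse BALB/c-107 also gave the highest values of 378 and 399. Chitobiose itself (116, GlcNAcβ1-4GlcNAcβ) ran from 56 to 6784 RFU (median 475.5 ± 400.5) and was bound in another male, mouse BALB/c-106. The α form differed from the β form by 0.49 (95% interval -0.16 to 1.14, exact permutation adjusted p = 0.224). Against Galα1-4GlcNAcβ (081), bound in 1 mouse, the difference was 0.77 (-0.05 to 1.60, exact permutation adjusted p = 0.131), and 0.94 without mouse BALB/c-48 (adjusted p = 0.0475).

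The single sugar GlcNAcα (024) served as the shortest reference. It ran from 280 to 7294.5 RFU (median 1069 ± 561.5), exceeded buffer in 15 mice and was bound in mice BALB/c-48 and BALB/c-88. Of the members, mouse BALB/c-88 also bound 142, 245, 378 and 399, and mouse BALB/c-48 bound 399 alone. The mean difference was 0.38 for 142 (95% interval -0.77 to 1.54, exact permutation adjusted p = 0.672), 0.06 for 800 (-0.72 to 0.84, exact permutation adjusted p = 0.911) and -1.16 for 243 (-1.66 to -0.68, exact permutation adjusted p = 0.000488). For 142 it was 1.70 in set 1, -0.81 in set 2 and -0.15 as measured, and for 800 it was 0.59, -0.42 and -0.14, so that neither kept its direction. Glycan 243 was dimmer than the sugar it ends in, in 15 mice against none. As 243 was at or below buffer in 18 mice, this is a difference between 024 and buffer for the most part. With spots flagged as not found left out the difference of 243 from 024 was -0.35 (exact permutation adjusted p = 0.0586), and as measured it was -2.27.

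**Figure D5:**
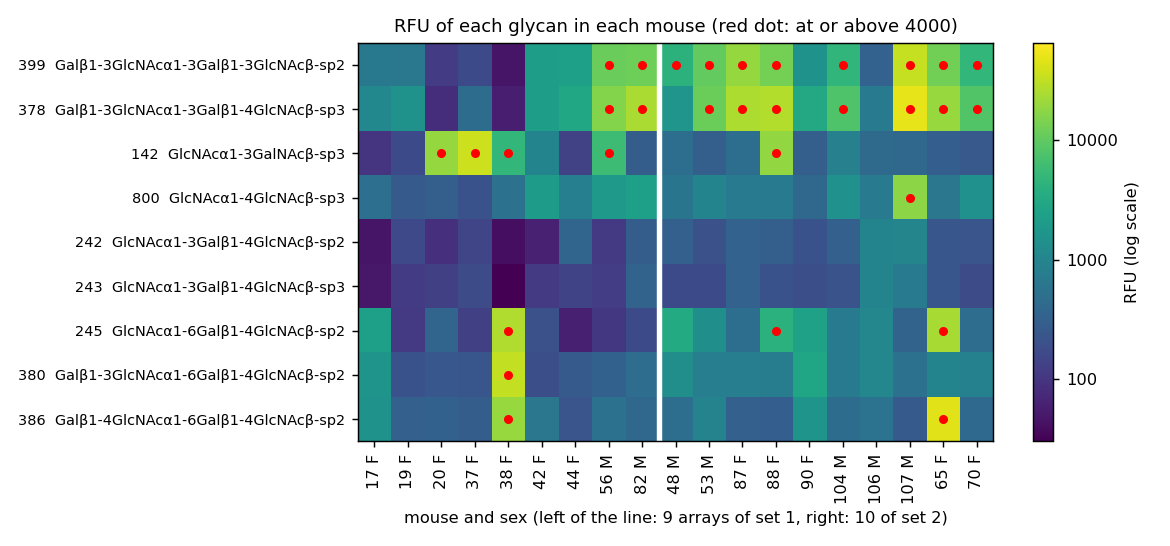
RFU (colour, logarithmic) of the 9 glycans (rows) in 19 mice (columns, with F for female and M for male), with 9 arrays of set 1 left and 10 of set 2 right of the white line and a red dot at 4000 RFU or more. Glycans 378 and 399 share 9 mice, and 142 is bound in 5 mice, 2 of them among these 9. The α1-6-linked glycans are bright in mice BALB/c-38 and BALB/c-65.

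By mouse, 6 animals bound none of the 9 glycans, 3 bound 1, 5 bound 2, 2 bound 3 and 3 bound 4. The 3 mice with 4 glycans held different combinations. Mouse BALB/c-38 bound 142 and all 3 of the α1-6 family but neither 378 nor 399, mouse BALB/c-65 bound 245, 386, 378 and 399, and mouse BALB/c-88 bound 142, 245, 378 and 399. Of 171 values, 31 were at or above the threshold, 11 of 81 in set 1 and 20 of 90 in set 2. Over all 419 compounds the set 2 arrays were also the richer, with 51 to 90 bound per mouse, against 24 to 52 in set 1.

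Females and males were compared because the study held both. For 378 the females ran from 58.0 to 27202.5 RFU (median 2524, 4 of 12 bound) and the males from 728 to 48806 RFU (median 11752, 5 of 7 bound). For 399 the females ran from 46.0 to 19583.5 RFU (median 1876.5, 4 of 12 bound) and the males from 338.5 to 33386.5 RFU (median 10302, 6 of 7 bound). The males were higher in the median, and the ranges overlapped.

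None of the 9 glycans differed between sexes in the model over all compounds (limma, Benjamini-Hochberg adjusted over 419 compounds), in which 1.67% of all compounds did. At an unadjusted p under 0.05 there were 3, namely 242, 243 and 800, beside 73 of all 419 compounds. Of these 3, 242 and 243 each exceeded the buffer median of the array in 1 mouse only. Female minus male was -1.83 on the log2 scale for 378 (95% interval -4.08 to 0.41, limma adjusted p = 0.336), -2.05 for 399 (-4.24 to 0.13, limma adjusted p = 0.326) and -1.56 for 800 (-2.90 to -0.22, limma adjusted p = 0.228). Of the 9 glycans, 5 were lower in females, beside 385 of all 419 compounds, and 142, 245, 380 and 386 were higher in females. The median difference over the 9 glycans was -0.89, beside -0.75 over all compounds. After quantile normalization these medians were -0.28 and 0.04.

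The sets of arrays hold unequal numbers of each sex, and the direction for 378 and 399 was not the same in them. In set 1, 378 and 399 were bound in both males, BALB/c-56 and BALB/c-82, and in 0 of 7 females, and female minus male was -4.92 and -4.67. In set 2, 378 was bound in 4 of 5 females and 3 of 5 males, and the difference was 1.20, and 0.68 for 399. With the set as a second term in limma the differences were -1.15 (adjusted p = 0.773) and -1.37 (adjusted p = 0.700).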

How the data were processed

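Serum antibodies were measured on 20 glycan arrays with 1 dye, Cy5. The authors scanned and quantified the arrays with ScanArray Express 4.00, and the deposited intensity is the mean of the pixels of a spot on the scanner's linear scale, with no scaling between arrays. For each spot the authors also deposited its local background and what percent of its pixels was saturated. Structures were taken from the deposited compound table, whose columns with medians over animals were not used.

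The median over 6 spots was the RFU of a compound in a mouse. Related glycans were compared in 24 pairs within mice, since they share serum, array and scan, by an exact sign-flip permutation test (two-sided) on log2 RFU with each signal under the array's buffer median set to that median. In the pairs of 378 with 399 and with 380 the spacer differs too. Intervals hold the shifts that this test does not reject, searched outward from the mean. Where many mice have both signals at buffer, an interval can stop just short of 0 although the test does not reject 0. This was so for 243 with 274 and for 242 with 243, and such intervals look too narrow. Sexes were compared with limma 3.58.1 (R 4.3.3) on log2 RFU with a minimum of 100 RFU. The differences within pairs were compared between sexes by an exact permutation of the sex labels. Adjusted p-values follow Benjamini and Hochberg. Correlations were tested within each set of arrays, exactly for 9 mice and with 100000 permutations for 10. The tests were checked on simulated data. Python 3.11.15, numpy 2.4.6, scipy 1.17.1 and pandas 2.3.3 were used.

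All glycans that the structural rule selects were named, with the compounds of the 24 pairs, the negative control and the 5 compounds most similar to each member bound in at least 5 mice. Compound 396 and the peptide compounds that tell the sets of arrays apart were chosen after their values were seen. Members, pairs and tests were chosen with earlier results of these data known, and the paper's tables had been read. The number of arrays limits the precision, p-values measure the spread between mice, and intervals of shares cover counting error only. Of the 419 compound numbers on the arrays, 418 matched the compound table, all members among them. Alternatives covered the mean of the spots, background subtraction, spots flagged as not found, quantile normalization, the identical arrays, thresholds of 2000 and 8000 RFU, the log scale, the sets of arrays and leaving out each mouse.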

Additional observations from a re-analysis of the deposited data

Results flagged for a closer look

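In the males, the highest of 7 mice stood far from the others for 4 of the 9 glycans. Glycan 142 gave 5873.5 RFU in mouse BALB/c-56 and 853.5 RFU in the next male. Glycan 245 gave 3326 RFU in mouse BALB/c-48 and 1381.5 RFU in the next, which is below the threshold of binding in both. Mouse BALB/c-107 stood apart for 399, with 33386.5 RFU against 12068 RFU, and for 800, with 17120 RFU against 2295.5 RFU. The gap took 0.90, 0.60, 0.65 and 0.90 of the range of the males for 142, 245, 399 and 800, where 0.568 marks a value that chance exceeds in about 1 of 20 groups of normal values, and RFU values of binding are skewed. The 12 females were too many for this comparison and were not tested by it.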

How the results depend on the processing

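Across all alternatives, 7 glycans were bound in at least 1 mouse, except that leaving out spots flagged as not found gave 8, since 243 then passed 4000 RFU in 1 mouse. Over these alternatives and thresholds of 2000 and 8000 RFU, the number of mice bound ran from 3 to 5 for 142, 2 to 6 for 245, 8 to 12 for 378, 1 to 2 for 380, 7 to 12 for 399 and 1 to 3 for 800, and stayed at 2 for 386 and 0 for 242. Of the 24 pairs, 9 passed, and leaving out each mouse in turn gave 6 to 10, with 6 without mouse BALB/c-88. The count was 6 with the mean of the spots, 7 without the flagged spots, 10 as measured and 10 with log2(RFU + 500). It was 0 in the 9 arrays of set 1 alone and 7 in the 10 of set 2 alone, and fewer mice entered each of these. No paired difference that passed reversed its direction. Some that did not pass changed sign, among them those of 380 with 245 and with 386 and of 245 with 253. The pairs 378 and 243, 378 and 379, 399 and 377, 242 and 249, and 243 and 250 passed in each of the 8 alternatives over pooled arrays and without each of the 19 mice. No member differed between sexes under any alternative, and leaving out each mouse gave 0 throughout. No paired analysis was possible between the sexes because no mouse number is shared by both. Signals below buffer limit what can be said of 242 and 243.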
